A study of Mus musculus with 8 samples.

Results

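The genes described here make, cut and bind hyaluronan in fibro-adipogenic progenitors (FAPs), the mesenchymal progenitors of skeletal muscle. They are 10 genes taken by symbol from the 55276 gene symbols of the deposited tables: the synthases Has1, Has2 and Has3, the degradation genes Hyal1, Hyal2 and Cemip, the receptor Cd44, and the binding and matrix genes Tnfaip6, Vcan and Hapln1. RNA was sequenced from GFP+ FAPs sorted by flow cytometry from the tibialis anterior muscle of mice 4 to 6 months old, at 3 or 7 days after freeze-pierce injury (dpi). Controls were Osr1 flox/+ CAGG Cre+ and Osr1cKO animals were Osr1 flox/flox CAGG Cre+ (a Cre switched on by tamoxifen), and both received tamoxifen on the day of injury and on the days that followed, so both carried a recombined Osr1 allele that expresses eGFP, the marker of the sort, and the controls were heterozygous rather than wild type. CAGG-Cre is active in all tissues, so the deletion was not limited to FAPs, although the sort was. Each of the 4 groups had 2 libraries, made from 1 mouse each at 3 dpi and from 4 pooled mice each at 7 dpi.

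Hyaluronan is a long sugar polymer that Has enzymes spin out through the plasma membrane from UDP-sugars. Outside the cell it is held by Cd44, cross-linked by versican, link proteins and Tnfaip6 (also called TSG-6), which moves heavy chains of inter-alpha-inhibitor onto it, and cut by Cemip and the hyaluronidases. In injured muscle such a provisional matrix is laid down early around degenerating fibers and is remodeled as new fibers form.

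The 10 genes spanned a wide range of levels, and 5 of them belonged to the most abundant transcripts of these cells. Levels were compared between genes as TPM, a transcript share corrected for gene length. Mean TPM over the 8 libraries was 1491 for Tnfaip6, 544 for Cd44, 433 for Has1, 279 for Vcan and 201 for Has2. Hyal2 followed at 17.5 TPM and Cemip at 6.07 TPM, while Hyal1 stood at 2.16, Has3 at 0.549 and Hapln1 at 0.0682 TPM. The order was the same in all groups except the controls at 7 dpi, where Has1 (519 TPM ± 69.7 SD, n = 2) stood above Cd44 (457 ± 9.49). Neighbors in the order did not overlap in any group other than the controls at 7 dpi, in which the libraries of Cemip (4.26 ± 1.75 TPM) and Hyal1 (3.49 ± 0.251 TPM) did. Since a library holds RNA of many cells, fewer cells of a type and less RNA per cell cannot be told apart in any of these values.

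**Figure D1:**
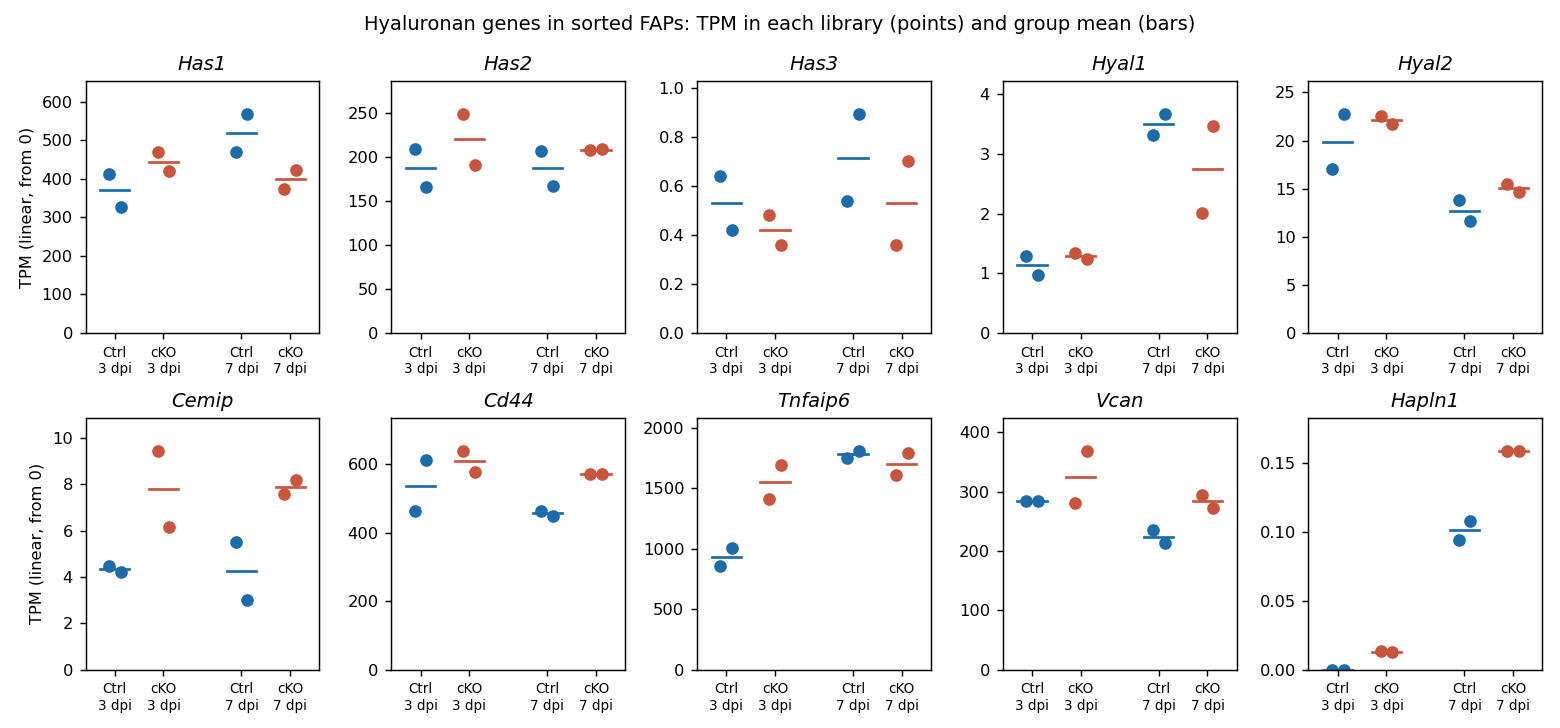
TPM of the 10 genes in each library (points; vertical axes linear from 0, with a scale of their own in each panel) and the mean of each group of 2 (bars), for control (blue) and Osr1cKO (red) at 3 and 7 dpi. Tnfaip6 at 3 dpi lay at 856 and 1007 TPM in controls and at 1412 and 1691 TPM in Osr1cKO, and Has1 at 7 dpi at 470 and 569 TPM in controls and at 374 and 424 TPM in Osr1cKO.

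Deposited TPM allowed 1 fragment to be valued in each library, which gave between 36516540 and 51096401 fragments per library. Osr1 itself, the targeted gene, had 105 and 91.0 TPM in controls and 70.7 and 71.9 TPM in Osr1cKO at 3 dpi, and 67.6 and 71.6 against 64.4 and 60.8 TPM at 7 dpi. It was lower in every Osr1cKO library than in the controls of its day, with the mean at 0.728 of the control at 3 dpi and 0.900 at 7 dpi, which passed an unadjusted p of 0.05 (0.016 and 0.017 with limma) and not the adjustment (adjusted p = 0.772 and 0.320). A gene-level value also counts exons outside the deleted part, so it checks the labels only in part. All 6 FAP markers were detected, with summed levels from 5525 to 12872 TPM, whereas 8 macrophage, 6 lymphoid and 5 endothelial markers summed to at most 59.3, 14.5 and 71.2 TPM in any library. Other lists reached higher sums, at most 111 TPM for pericyte and smooth muscle, 129 TPM for chondrocyte and 677 TPM for tenocyte markers. Control replicate 1 at 3 dpi was the library least like the others of its day on scaled log2 values. It correlated with them at 0.976 to 0.978, against 0.980 to 0.989 among the others. Control replicate 2 was more like Osr1cKO replicate 1 (0.986) than like control replicate 1 (0.977). A group of 2 does not show which of its libraries is the unusual one. Results of that day are also given without control replicate 1 where that changes a call, a sign or a size by much.

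Promoter sequence is shown for the genes of the set that passed a test between genotypes, Tnfaip6, Cemip and Has1. RefSeq promoter windows of 250 bases before the start were held for 8 of the 10 genes (GRCm38.p6), and the stretches below leave out any base that GENCODE annotates as exon. Capitals mark matches, on either strand, to AP-1 (TGANTCA), the GC box (GGGCGG), the TATA box (TATAAA), TEAD (GGAATG), the odd-skipped family motif (GCTACTGT), NF-kB and the cAMP response element (TGACGTCA), the last of which was added after the Has1 sequence had been read.
Tnfaip6, chr2:52037863-52038008, plus strand: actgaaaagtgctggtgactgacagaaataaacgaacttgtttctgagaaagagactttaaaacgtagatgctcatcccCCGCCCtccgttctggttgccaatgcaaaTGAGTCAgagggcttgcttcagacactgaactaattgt
Cemip, chr7:84086506-84086755, minus strand: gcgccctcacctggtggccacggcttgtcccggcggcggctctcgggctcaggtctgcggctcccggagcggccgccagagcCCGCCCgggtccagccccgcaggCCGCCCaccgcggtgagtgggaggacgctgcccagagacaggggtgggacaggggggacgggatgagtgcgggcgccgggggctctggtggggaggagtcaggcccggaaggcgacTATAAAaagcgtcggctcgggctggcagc
Has1, chr17:17855206-17855438, minus strand: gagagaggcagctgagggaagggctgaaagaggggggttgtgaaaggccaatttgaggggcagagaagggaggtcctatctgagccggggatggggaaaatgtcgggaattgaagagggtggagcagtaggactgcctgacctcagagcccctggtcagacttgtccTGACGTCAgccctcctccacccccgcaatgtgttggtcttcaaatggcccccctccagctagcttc

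The windows differed in composition. GC content was 44.4% for Tnfaip6, 58.0% for Has1 and 75.2% for Cemip, against a median of 52.4% over 32536 windows. Tnfaip6 held the AP-1 letters between 142 and 136 bases before its start, as did 6.73% of all windows, a GC box (33.0% of windows) and, in the part not printed, the TEAD letters (12.6%). Cemip held TATAAA between 29 and 24 bases before its start (12.3% of windows) and a pair of GC boxes. Has1 held none of the others and held TGACGTCA between 83 and 76 bases before its start (1.56% of windows). Of the windows not shown, that of Hyal2 held the NF-kB motif (3.92% of windows), with the TEAD letters overlapping it, and a GC box, and those of Hyal1 and Vcan held GC boxes. The odd-skipped letters, present in 0.728% of windows, were in no window of the 8 genes. Distances count back from the RefSeq start that closes each window. For Tnfaip6 (window up to chr2:52038112) and Has1 (window down to chr17:17855189) that start lies inside the GENCODE gene bounds. Distances from the GENCODE start are shorter for these 2 genes. Such matches describe the letters of a window and were not tested for binding.

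At 3 dpi, the comparison of Osr1cKO with control asked how loss of Osr1 altered this matrix program early after injury. Among the synthases, none passed a test. Has1, which makes hyaluronan and was the most abundant of the 3, had 414 and 327 TPM in controls and 469 and 421 TPM in Osr1cKO. Both Osr1cKO libraries lay above both controls, the lower of them only slightly, and the log2 difference was 0.27 (SE 0.18, limma unadjusted p = 0.18, adjusted p = 0.853). It was 0.42 without control replicate 1 (limma unadjusted p = 0.052) and 0.10 without control replicate 2. Has2, the synthase that is essential in the embryo, had 209 and 166 TPM in controls and 249 and 191 TPM in Osr1cKO. Its groups overlapped, with a log2 difference of 0.23 (95% interval from -0.29 to 0.75), 0.38 without control replicate 1 and 0.02 without Osr1cKO replicate 1. Has3 rested on 30 to 51 fragments per library and had 0.642 and 0.419 TPM in controls against 0.483 and 0.359 TPM in Osr1cKO, again with overlap (log2 difference -0.10, and -0.0028 without control replicate 1).

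Cemip, which binds and starts the breakdown of hyaluronan outside the cell, had 4.49 and 4.21 TPM in controls and 9.45 and 6.16 TPM in Osr1cKO at 3 dpi. Both Osr1cKO libraries lay above both controls, but they differed from each other by more than the lower of them differed from the controls. The ratio of the means was 1.79, and the log2 difference of 0.69 (SE 0.26) passed the unadjusted threshold (limma unadjusted p = 0.045) and not the adjusted one (adjusted p = 0.784). The call was lost without control replicate 1 (unadjusted p = 0.084), without control replicate 2 (0.10) or without Osr1cKO replicate 1 (0.27 with limma, log2 difference 0.40). Hyal2, a membrane-anchored hyaluronidase, had 17.0 and 22.8 TPM in controls and 22.5 and 21.7 TPM in Osr1cKO. These groups overlapped, and without control replicate 1 the sign turned (log2 difference from 0.16 to -0.056). Hyal1, the lysosomal hyaluronidase, had 1.30 and 0.978 TPM in controls and 1.34 and 1.23 TPM in Osr1cKO, with overlap (log2 difference 0.10, 0.20 without control replicate 1 and -0.0063 without control replicate 2).

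Tnfaip6 was the most abundant gene of the set and, beside Cemip, the other one that passed at 3 dpi. It had 856 and 1007 TPM in controls and 1412 and 1691 TPM in Osr1cKO. Both Osr1cKO libraries lay well above both controls, and the distance between the groups exceeded the distance within either. The means were 931 ± 107 TPM and 1551 ± 198 TPM (SD, n = 2 each), a ratio of 1.67, and the log2 difference was 0.73 (SE 0.20, 95% interval from 0.22 to 1.24, limma unadjusted p = 0.014). After adjustment over all genes it did not pass (adjusted p = 0.772). Without Osr1cKO replicate 2 the log2 difference was 0.63 and the call was lost (limma unadjusted p = 0.10), while leaving out any other library kept it. Vcan, the large chondroitin sulfate proteoglycan versican, had 285 and 283 TPM in controls and 281 and 369 TPM in Osr1cKO, so only Osr1cKO replicate 2 stood above the controls. Cd44 had 463 and 612 TPM in controls and 640 and 578 TPM in Osr1cKO, with overlap, and its sign turned without control replicate 1 (log2 difference from 0.19 to -0.023). Hapln1, the link protein that locks hyaluronan to versican, had 0 fragments in both controls, which allows up to 0.0408 TPM at a floor of 3 fragments, and 1 fragment in each Osr1cKO library. It was under the filter and was not tested in any comparison.

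In all, 2 of the 9 tested genes passed the unadjusted threshold with a fold change over 1.2 at 3 dpi, Tnfaip6 and Cemip, both higher in Osr1cKO. Of all 15699 genes tested, 6.27% passed it in either direction, 2.38% as higher and 3.89% as lower. None of the 9 and 0% of all genes passed an adjusted p under 0.1 with limma, and limma-voom on recovered fragments gave no member either. Libraries of the 2 genotypes did not overlap for 3 of the 9, against 36.2% of all genes (18.2% higher, 18% lower). The median log2 difference of the 9 was 0.19 and that of all genes 0.01. The summed FAP markers differed with genotype at this day, from 7653 to 11254 TPM in controls and from 5525 to 6245 TPM in Osr1cKO. Mean TPM was lower in Osr1cKO for Ly6a (4819 and 2539), Dcn (1280 and 974) and Pdgfra (353 and 295). Cd34, Pdgfrb and Gsn overlapped, with Gsn at 3671 TPM in control replicate 1 and 1287 TPM in control replicate 2. Endothelial markers summed to 21.2 to 44.4 TPM in controls and 17.2 to 18.0 TPM in Osr1cKO. Of these, Kdr had 16.8 and 2.25 TPM in the controls. The part of the FAP and endothelial markers in the differences was not tested.

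**Figure D2:**
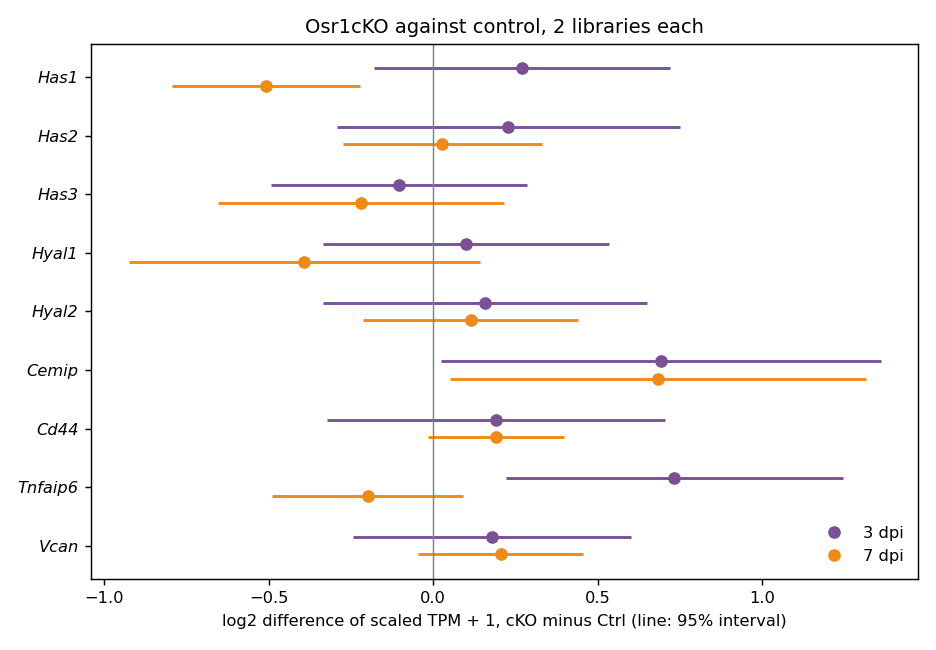
Log2 difference between Osr1cKO and control for the 9 tested genes at 3 dpi (purple) and 7 dpi (orange), on scaled TPM with 1 added; points are estimates of 2 libraries against 2 and lines are 95% intervals. The interval of Tnfaip6 lay above 0 at 3 dpi (0.73) and included 0 at 7 dpi (-0.20), that of Has1 lay below 0 at 7 dpi (-0.51), and that of Cemip lay above 0 at both days (0.69 and 0.68).

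At 7 dpi, no gene of the set passed an adjusted p under 0.1 with limma. Of all 16578 genes tested, 11 passed it together with the fold minimum. The study used this threshold with DESeq2, which was not run here, and called many more genes at this day. The absence of a member here therefore does not give the outcome of the study's test. The largest differences by unadjusted p were those of Has1 and Cemip, in opposite directions. Has1 had 470 and 569 TPM in controls and 374 and 424 TPM in Osr1cKO. Both Osr1cKO libraries lay below both controls, with means of 519 ± 69.7 and 399 ± 34.8 TPM (SD, n = 2 each) and a ratio of 0.768. The log2 difference of -0.51 (SE 0.11) had a limma unadjusted p of 0.0053 and an adjusted p of 0.268. Without control replicate 1 it was -0.64 with an adjusted p of 0.084 in limma, and it was negative without each of the other libraries as well. Has2 had 207.1 and 167 TPM in controls and 207.4 and 209 TPM in Osr1cKO, so that 3 of the 4 libraries had nearly the same level. Its log2 difference was 0.03 (95% interval from -0.27 to 0.33), and the sign turned without control replicate 2 (-0.13). Has3, on 22 to 63 fragments, had 0.538 and 0.895 TPM in controls and 0.359 and 0.701 TPM in Osr1cKO, with overlap.

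The balance of the synthases is a further view of the Has1 values. Has1 supplied 66.4% and 66.3% of the summed Has TPM in controls and 65.3% and 68.7% in Osr1cKO at 3 dpi. At 7 dpi it supplied 69.4% and 77.2% in controls and 64.3% and 66.9% in Osr1cKO. Thus the share in both controls at 7 dpi exceeded that in both Osr1cKO libraries, and control replicate 2 stood highest. The sum of the 3 synthases was 678 and 737 TPM in controls and 582 and 633 TPM in Osr1cKO at 7 dpi, and 623 and 494 TPM against 719 and 613 TPM at 3 dpi. With 2 libraries against 2, an exact permutation test cannot give a p under 0.333, so these shares are given as a description.

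Cemip had 5.49 and 3.02 TPM in controls and 7.59 and 8.16 TPM in Osr1cKO at 7 dpi. Both Osr1cKO libraries lay above both controls as at 3 dpi, and the controls differed from each other more than the Osr1cKO libraries did. The ratio of the means was 1.85 and the log2 difference 0.68 (SE 0.25, limma unadjusted p = 0.038, adjusted p = 0.372). It was 1.04 without control replicate 1 (adjusted p = 0.087 with limma) and 0.33 without control replicate 2 (adjusted p = 0.828), so its size rested on which control was kept. Hyal2 had 13.8 and 11.6 TPM in controls and 15.5 and 14.7 TPM in Osr1cKO, without overlap, but the scaled log2 difference was only 0.11 (95% interval from -0.21 to 0.44). Hyal1 had 3.32 and 3.67 TPM in controls and 2.01 and 3.47 TPM in Osr1cKO, so Osr1cKO replicate 1 alone stood clearly below. Much of the Hyal1 value is uncertain, since 1920 of its 3777 exonic bases are shared with Naa80 on the same strand (6.66 to 9.55 TPM) and 159 with Hyal3.

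Cd44 had 464 and 450.1 TPM in controls and 572 and 571 TPM in Osr1cKO at 7 dpi. The libraries agreed closely within each genotype and did not overlap between them, with a ratio of means of 1.25. The scaled log2 difference was 0.19 (SE 0.08, limma unadjusted p = 0.064, adjusted p = 0.423). Vcan had 235 and 213 TPM in controls and 295 and 272 TPM in Osr1cKO, which did not overlap either. Its ratio was 1.26 and its scaled log2 difference 0.21 (SE 0.10, limma unadjusted p = 0.090, adjusted p = 0.466). Tnfaip6 had 1747 and 1811 TPM in controls and 1614 and 1788 TPM in Osr1cKO. Its groups overlapped at 7 dpi, and the log2 difference was -0.20 (95% interval from -0.49 to 0.09). Hapln1 rested on 6 and 7 fragments in controls and 9 in each Osr1cKO library, too few for a test.

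Among the 9 tested genes at 7 dpi, 2 passed the unadjusted threshold, 1 higher (Cemip) and 1 lower (Has1), against 11.1% of 16578 genes (5.21% higher, 5.91% lower). By adjusted p it was 0 of 9 against 0.0664% of all genes (0.0181% higher, 0.0483% lower). Libraries of the genotypes did not overlap for 6 of the 9, but they did not for 53.5% of all genes, of which 42.8% were higher and 10.7% lower in Osr1cKO. This excess of higher values came with a shift of the deposited TPM as a whole. Without further scaling, the median log2 difference of all genes was 0.11 at 7 dpi and 4 of the 9 passed the unadjusted threshold, 3 higher and 1 lower, as did 2282 genes as higher and 468 as lower. With scaling these were 864 and 979 genes. The scaled differences of Cd44, Vcan and Hyal2 were between 0.11 and 0.21. Tenocyte markers also moved with genotype at 7 dpi, with summed levels of 238 to 333 TPM in controls and 550 to 677 TPM in Osr1cKO, 4 of 4 detected in each group. Summed chondrocyte (87.3 to 104 and 107 to 115 TPM) and Schwann cell markers (6.16 to 7.33 and 8.26 to 15.9 TPM) were also higher in Osr1cKO. Summed myofiber markers went the other way (51.6 to 52.8 TPM in controls, 32.6 to 35.3 TPM in Osr1cKO). So did summed lymphoid markers (11.6 to 14.5 TPM and 7.33 to 7.86 TPM). Of the lymphoid list, Cd79a had 10.1 and 11.3 TPM in controls and 7.71 and 7.07 TPM in Osr1cKO. Cd3e had 4.27 TPM in control replicate 1 and 0.0666 TPM in control replicate 2. The part of these markers in the differences was not tested.

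The days were compared next, within each genotype. At 7 dpi the libraries pooled 4 mice and were less deep than at 3 dpi, and the methods name a pair of sequencers where the labels name 1, so day, pooling, depth and possibly instrument cannot be told apart. Markers of other cells moved with day as well. In controls, tenocyte markers summed to 48.8 to 61.1 TPM at 3 dpi and 238 to 333 TPM at 7 dpi, 4 myofiber markers to 6.92 to 10.8 and 51.6 to 52.8 TPM, and macrophage markers to 17.9 to 20.1 and 39.0 to 39.3 TPM. In Osr1cKO the same lists summed to 46.7 to 83.0 and 550 to 677 TPM, 5.34 to 7.74 and 32.6 to 35.3 TPM, and 11.1 to 18.7 and 39.1 to 59.3 TPM. The FAP markers of Osr1cKO summed to 5525 to 6245 and 8878 to 12338 TPM, but did not move together. Mean TPM rose for Gsn (1567 to 5733), Dcn (974 to 2483) and Cd34 (182 to 369). It fell for Pdgfra (295 to 220), Ly6a (2539 to 1598) and Pdgfrb (328 to 204). In controls the FAP sums overlapped (7653 to 11254 and 10172 to 12872 TPM), and the same markers rose and fell. Mean TPM in controls rose for Gsn (2479 to 6520), Dcn (1280 to 2538) and Cd34 (183 to 360). It fell there for Pdgfra (353 to 209), Ly6a (4819 to 1666) and Pdgfrb (339 to 230). Summed neutrophil, erythroid, lymphoid, muscle stem cell and Schwann cell markers were also higher at 7 dpi in both genotypes. Each of these lists summed to no more than 45.4 TPM in any library. So were summed endothelial markers (21.2 to 44.4 and 46.0 to 61.2 TPM in controls, 17.2 to 18.0 and 47.2 to 71.2 TPM in Osr1cKO). Tek made up most of each endothelial sum. Kdr fell in controls, from 16.8 and 2.25 to 1.17 and 1.14 TPM. Pericyte and smooth muscle markers summed to 27.1 to 33.7 and 45.1 to 111 TPM in controls. In Osr1cKO they summed to 24.7 to 46.0 and 67.7 to 95.7 TPM. Cspg4 of this list went the other way, from 19.4 and 25.5 to 16.4 and 18.2 TPM in controls. In Osr1cKO it went from 37.6 and 19.5 to 13.3 and 17.7 TPM. Chondrocyte markers overlapped between the days in both genotypes. The part of these markers in the day differences was not tested. In controls, Tnfaip6, Has1 and Hyal1 rose between the days, which was 3 of 9 genes past the adjusted threshold, all higher, against 49.3% of all 16525 genes in either direction, 23.8% as higher and 25.4% as lower. A share below that of all genes is not a result about the set.

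Tnfaip6 in controls went from 856 and 1007 TPM at 3 dpi to 1747 and 1811 TPM at 7 dpi, a ratio of means of 1.91. Both later libraries lay far above both earlier ones (log2 difference 1.03, SE 0.20, limma adjusted p = 0.018). In Osr1cKO it went from 1412 and 1691 to 1614 and 1788 TPM, with overlap between the days (log2 difference 0.08, 95% interval from -0.33 to 0.49). Thus Osr1cKO replicate 2 at 3 dpi already lay within the range of the 7 dpi libraries, and replicate 1 lay between that range and the controls of its day. Has1 in controls went from 414 and 327 to 470 and 569 TPM (log2 difference 0.58, SE 0.17, limma adjusted p = 0.048). In Osr1cKO it went from 469 and 421 to 374 and 424 TPM, with overlap (log2 difference -0.21, limma adjusted p = 0.181). Without 1 of the control libraries of 7 dpi, the calls of Tnfaip6 (adjusted p = 0.118 or 0.128 with limma) and of Has1 (0.145 or 0.305) were lost while their log2 differences stayed at 1.06 or more and at 0.50 or more.

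Hyal1 was the member that rose in both genotypes, from 1.14 ± 0.225 to 3.49 ± 0.251 TPM in controls and from 1.29 ± 0.0748 to 2.74 ± 1.03 TPM in Osr1cKO (SD, n = 2 each). The log2 difference was 1.14 in controls (SE 0.18, limma adjusted p = 0.010) and 0.65 in Osr1cKO (SE 0.21, limma adjusted p = 0.056), and the latter was lost without Osr1cKO replicate 2 of 7 dpi (0.41, adjusted p = 0.175). The caution on exons shared with Naa80 holds here too, although Naa80 itself stayed between 6.66 and 9.55 TPM in all 8 libraries. Hyal2 fell in Osr1cKO, from 22.5 and 21.7 to 15.5 and 14.7 TPM (log2 difference -0.57, SE 0.12, limma adjusted p = 0.014), a call that was lost without replicate 2 of 7 dpi (adjusted p = 0.108). In controls it went from 17.0 and 22.8 to 13.8 and 11.6 TPM, with a log2 difference of -0.51 of almost the same size but an adjusted p of 0.122 with limma.

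Has2, Has3, Cemip, Cd44 and Vcan passed in neither genotype. Cemip stayed at its genotype's level on both days, with a log2 difference of 0.01 in controls (95% interval from -0.73 to 0.75) and -0.01 in Osr1cKO (from -0.58 to 0.55). Vcan had lower TPM at 7 dpi than at 3 dpi in both control libraries (log2 difference -0.25, limma adjusted p = 0.173), and in Osr1cKO its days overlapped (-0.24, 0.246). In Osr1cKO the genes past the adjusted threshold were 2 of 9, 1 in each direction, against 56.5% of 16279 genes (27.4% higher, 29.1% lower). Libraries of the days did not overlap for 5 of the 9 in controls (74.9% of all genes, 33.5% higher and 41.4% lower) and for 3 of the 9 in Osr1cKO (77.2%, 40.6% higher and 36.5% lower).

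**Figure D3:**
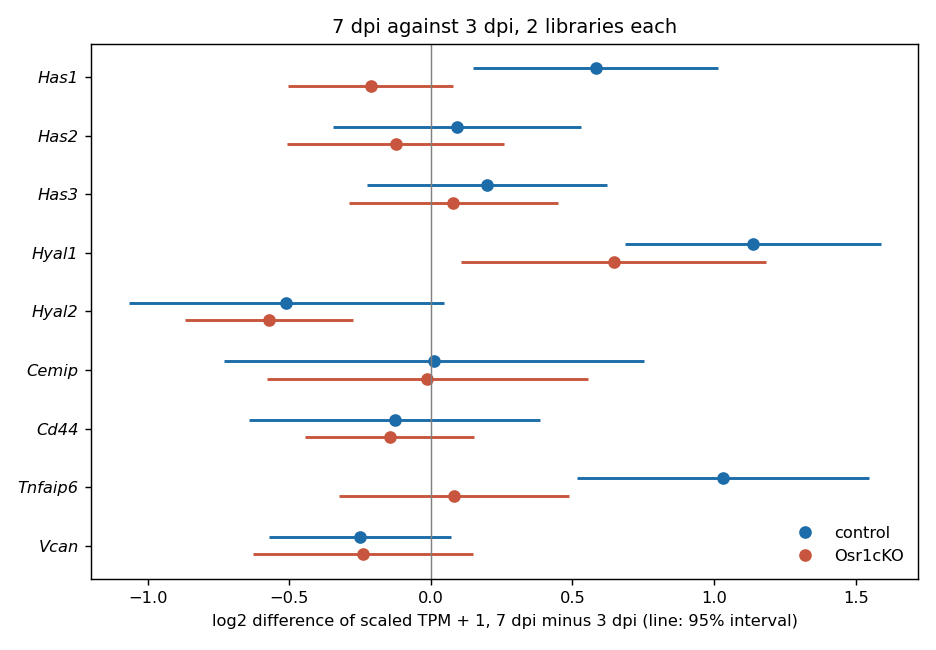
Log2 difference between 7 dpi and 3 dpi for the 9 tested genes in controls (blue) and Osr1cKO (red), on scaled TPM with 1 added; points are estimates of 2 libraries against 2 and lines are 95% intervals. Tnfaip6 and Has1 had differences of 1.03 and 0.58 in controls and of 0.08 and -0.21 in Osr1cKO, while Hyal2 and Vcan had like values in both genotypes.

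Whether the genotype difference itself changed between the days was tested over all 8 libraries. The change was -0.94 for Tnfaip6 (SE 0.25, limma unadjusted p = 0.0066) and -0.79 for Has1 (SE 0.21, limma unadjusted p = 0.0063), and neither passed the adjustment (adjusted p = 0.596 for both). At an unadjusted p under 0.05 these were 2 of 9 genes, against 6.78% of 17371 genes (3.62% higher, 3.15% lower; 1171 and 288 genes without scaling, 629 and 548 with it), and 0% of all genes passed an adjusted p under 0.1. Their values were negative without each library in turn, between -1.10 and -0.79 for Tnfaip6 and between -0.92 and -0.66 for Has1. The other 7 changes lay between -0.50 (Hyal1) and 0.02 (Vcan).

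The wider hyaluronan network was read from a list of 48 other genes in 7 groups, of which 40 to 42 were tested per comparison. At 3 dpi, 4 of 40 passed the unadjusted threshold, all higher in Osr1cKO, against 6.27% of all genes, and none passed the adjustment with limma (unadjusted p from 0.0065 to 0.046). Chst11, which sulfates the chondroitin chains that versican carries, had 31.3 and 34.9 TPM in controls and 50.2 in each Osr1cKO library (log2 difference 0.59, limma unadjusted p = 0.0065). Chsy3, a chondroitin polymerase, followed with 6.43 and 6.84 against 13.2 and 10.2 TPM (0.72). Gfpt1, which opens the pathway to the UDP-sugar of hyaluronan, had 46.7 and 56.9 against 66.1 and 69.4 TPM (0.39). Adamts4, a protease that cleaves versican and aggrecan, had 129 and 117 against 161 and 158 TPM (0.37). Over the whole network, the libraries of the genotypes did not overlap for 18 of 40 genes, against 36.2% of all genes.

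At 7 dpi, 11 of 42 passed the unadjusted threshold, 4 higher and 7 lower, against 11.1% of all genes, and none by adjusted p with limma. Adamts4 now stood lower in Osr1cKO, with 257 and 276 TPM in controls and 185 and 198 TPM in Osr1cKO (log2 difference -0.60, limma adjusted p = 0.149), and the change between days was -0.99 (SE 0.12, limma adjusted p = 0.188). Itih2, a heavy chain that Tnfaip6 can transfer, had 8.73 and 9.18 TPM in controls and 5.36 and 6.40 TPM in Osr1cKO (-0.65, limma adjusted p = 0.252). Of 6 hyalectans and link proteins other than those of the set, 4 were tested. Their log2 differences were above 0 for 4 of 4, as were 50.8% of all genes. Hapln4 had 0.875 and 0.808 against 2.15 and 1.99 TPM (0.66, limma adjusted p = 0.252). Bcan and Hapln3 were low as well, with means of 0.193 and 0.652 TPM in controls and 0.653 and 0.903 TPM in Osr1cKO. In the degradation group, Hexa, a lysosomal enzyme that trims hyaluronan fragments, had 343 and 348 against 302 and 313 TPM (-0.30, limma adjusted p = 0.279). Csgalnact1, which starts chondroitin chains, had 72.5 and 76.4 against 108 and 96.5 TPM (0.32), and Gfpt2, the most abundant gene of UDP-sugar supply, 565 and 633 against 505 and 556 TPM (-0.31).

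**Figure D4:**
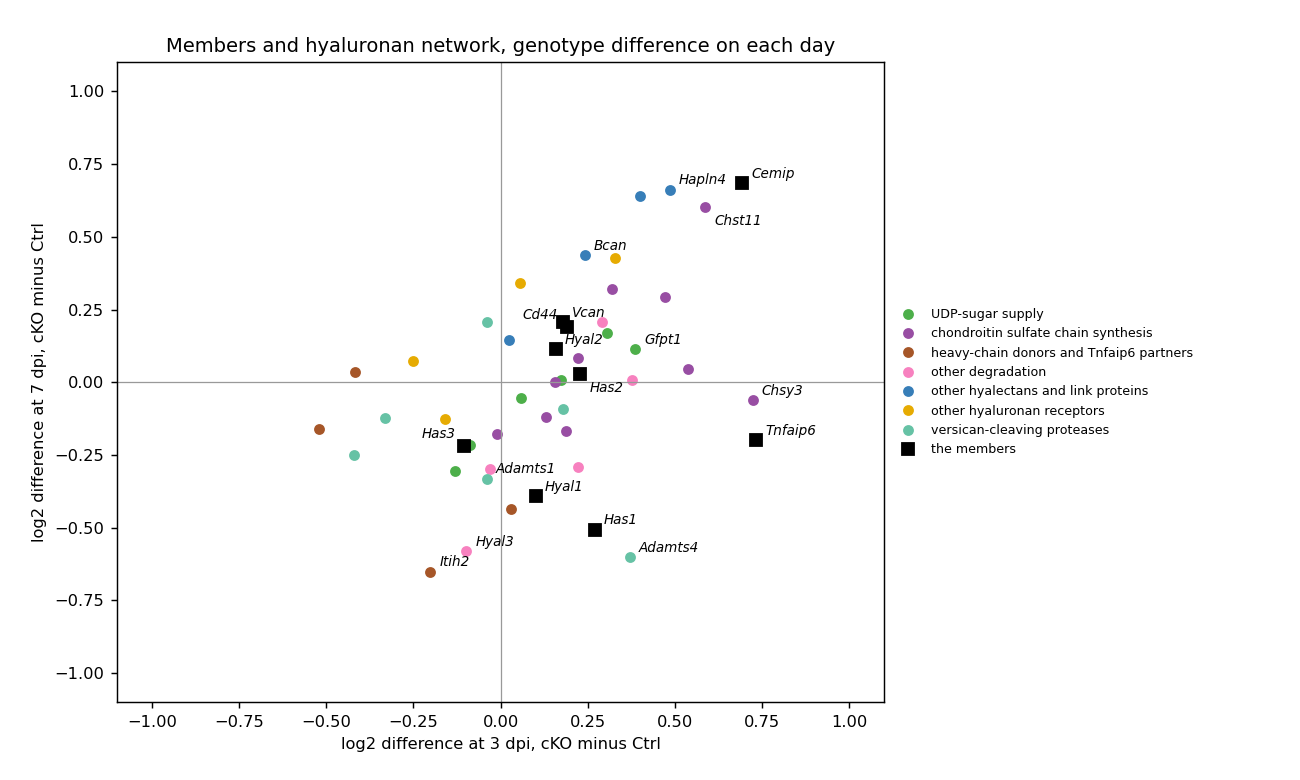
Log2 difference between Osr1cKO and control at 3 dpi (horizontal) and at 7 dpi (vertical) for the 9 tested genes of the set (black squares) and 39 tested genes of the wider network (circles, colored by group); 1 further gene, Gnpnat1, lies outside the axes because control replicate 2 of 3 dpi had 0.913 TPM where its other libraries had 17.3 to 23.7 TPM. Cemip lay at 0.69 and 0.68, Tnfaip6 at 0.73 and -0.20, Has1 at 0.27 and -0.51, and Adamts4 at 0.37 and -0.60.

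Between the days, 20 of 41 network genes passed the adjusted threshold in controls (14 higher, 6 lower) and 16 of 41 in Osr1cKO (8 higher, 8 lower), against 49.3% and 56.5% of all genes. Itih5, another heavy-chain gene, went from 29.5 and 29.8 to 170 and 190 TPM in controls (log2 difference 2.65, limma adjusted p = 0.0033) and from 32.0 and 28.8 to 117 and 180 TPM in Osr1cKO (2.17, limma adjusted p = 0.0017). Hmmr, a hyaluronan-binding protein known mostly as a gene of dividing cells, fell from 25.2 and 33.1 to 3.67 and 2.52 TPM in controls and by 2.73 on the log2 scale in Osr1cKO. Layn, a membrane receptor for hyaluronan, fell by 1.11 in controls and 1.09 in Osr1cKO on the log2 scale. Acan, the cartilage hyalectan, rose from 0.107 and 1.25 to 9.60 and 6.22 TPM in controls and from 0.889 and 1.31 to 10.5 and 18.2 TPM in Osr1cKO. Lyve1, the receptor of lymphatic vessels and some macrophages, rose by 0.80 and 1.09 on the log2 scale in controls and Osr1cKO, and reached at most 2.03 TPM. Adamts15 and Adamts1, both able to cleave versican, rose by 1.68 and 0.65 in controls and by 1.84 and 0.34 in Osr1cKO on the log2 scale. Ptx3, which is cross-linked with heavy chains in the matrix, was abundant but erratic, with 1732 and 874 TPM in controls and 445 and 1655 TPM in Osr1cKO at 3 dpi, and passed no test. Of the genes that feed and trim the polymer, Pgm3 fell by 0.50 and 0.66 on the log2 scale in controls and Osr1cKO. Gusb fell by 0.61 and 0.71, Ugp2 rose by 0.51 in controls, and Hexa rose by 1.05 in controls and 0.76 in Osr1cKO. Of the genes of chondroitin sulfate chain synthesis, Csgalnact1 fell by 0.48 and 0.50, and Chpf2 fell by 0.87 in Osr1cKO.

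Position and overlap bear on several members, whose gene bounds follow GENCODE (GRCm38). The synthases lie apart, Has1 at chr17:17843323-17855205, Has2 at chr15:56665627-56694539 and Has3 at chr8:106870242-106884566, as do Cemip at chr7:83932857-84086502 and, far from each other on chromosome 2, Tnfaip6 at chr2:52038009-52056686 and Cd44 at chr2:102811141-102901665. Hapln1 and Vcan lie tail to tail on chromosome 13 with 43659 bases between them, yet Vcan reached 369 TPM and Hapln1 never more than 0.159 TPM. Hyal2 and Hyal1 are neighbors on chromosome 9, 4147 bases apart and on the same strand, and in Osr1cKO the one fell and the other rose between the days. Has2os, on the opposite strand to Has2 (chromosome 15), shares 182 exonic bases with it and ranged from 3.85 to 12.2 TPM, far under Has2. Chtf8 shares 352 bases with Has3 on the opposite strand and ranged from 0.686 to 6.48 TPM, above Has3 in every library but control replicate 2 of 7 dpi, so the Has3 value is uncertain where strand was not used.

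The genes whose pattern over the 8 libraries was most like that of each member were found among 8420 genes with a mean TPM of at least 10, by Pearson r on scaled log2(TPM + 1). The 8 values share the day and the genotype, and the top of so many genes is high by selection, so these are a description. Tnfaip6 was most like Rhoq (0.988), Dlg1 (0.980) and Sec16b (0.975), and Has1 like Hdgfl3 (0.925), Pqlc1 (0.910) and Bicc1 (0.906). Vcan was most like Lpgat1 (0.976), Ssb (0.967) and Hmgn5 (0.966), and Cd44 like Tmem208 (0.976), Zfp330 (0.972) and Rnf7 (0.971). Hyal2 was most like Gpx7 and Ssr2 (both 0.995) and Swi5 (0.994), and Hyal1 like Ptpdc1 (0.992), Zmym4 (0.988) and Tcf4 (0.987). Cemip was most like Ubl5 (0.940), Cdc42ep3 (0.937) and Rfk (0.925), Has2 like H2az2 (0.882), Ctsd (0.867) and Vcl (0.858), and Has3 like Lynx1 (0.948), Scamp5 (0.932) and Mknk1 (0.927).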

How the data were processed

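RNA-seq was performed on 8 libraries of sorted FAPs with a kit that keeps strand. The authors mapped reads to mm10 with STAR, and deposited TPM, 1 value per gene symbol and library, which they had calculated from fragment counts normalized by DESeq2. The counting program, its strand setting and its annotation are not given in the sources used here. Of 55385 entries, 109 repeats of 106 symbols were dropped. With GENCODE mouse release 21 (GRCm38) exon lengths for 53281 symbols, 98.7% to 98.9% of values under 50 fragments fell within 0.02 of a whole number, so fragments were recovered. Floors (3 fragments) cover counting error only.

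Libraries were brought to 1 scale with the mean log ratio after trimming 30%, and limma (lmFit and eBayes with a trend) was fitted to log2(TPM + 1), a scale that understates the change of low genes. Genes tested had 10 recovered fragments in 2 libraries and 15 in all, or a mean TPM of 1 where no length was known. As in the study's methods, genotype calls required a fold change above 1.2, with p below 0.05 without adjustment at 3 dpi and a Benjamini-Hochberg value below 0.1 at 7 dpi. The 7 dpi rule was carried over to the days, and without the fold minimum to the interaction over all 8 libraries, a choice made here. The study made its calls with DESeq2, which was not run here, so calls by limma need not match those of the study. P-values rest on the spread between 2 libraries per group, which eBayes moderates with the spread of all genes tested. At 7 dpi that spread is between pools of 4 mice.

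The members, the network list and the marker lists were chosen with earlier results of these data known. All members and Osr1 were named. From each network group, the called gene of smallest p per direction and the gene of highest mean TPM could be named, and Gnpnat1 was added after its values were seen. Alternatives were unscaled TPM, a pseudocount of 0.1, a mean TPM of at least 1, no filter, limma-voom on recovered fragments, all libraries in 1 fit, a replicate block and leaving out each library. The scripts were tested on simulated data. The software was Python 3.11.15 with pandas 2.3.3, NumPy 2.4.6 and matplotlib 3.10.9, and R 4.3.3 with limma 3.58.1.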

Additional observations from a re-analysis of the deposited data

Results flagged for a closer look

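For Has1 and Tnfaip6, the genotype difference was not the same at both days by the test of the difference itself, at an unadjusted p only. The change from 3 to 7 dpi was -0.79 for Has1 and -0.94 for Tnfaip6 on the log2 scale, and after adjustment over all genes neither passed (limma adjusted p = 0.596 for each). In Has1, both Osr1cKO libraries lay above both controls at 3 dpi and below both at 7 dpi. In Tnfaip6, the difference between genotypes at 3 dpi was 0.73 and at 7 dpi the groups overlapped. Groups of 2 libraries do not allow a test for a single library far from its group.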

How the results depend on the processing

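Outside the leave-one-out fits, 178 member differences kept direction and side of the threshold and 5 lost their call, and no member reversed. At 3 dpi, 1 member passed with no filter and 1 with the replicate block, in both cases without Cemip, and fitting all 8 libraries together gave 1755 genes (12 by adjusted p). At 7 dpi, 4 members passed unadjusted on unscaled TPM and 1 with no filter. Genes past the adjusted threshold at 7 dpi were 0 on unscaled TPM, where mean TPM had to reach 1, with no filter and with all libraries in 1 fit (1168 unadjusted), 188 with limma-voom and 27 with the replicate block. Between days, 5 members passed in controls on unscaled TPM and 1 in Osr1cKO with no filter. The interaction gave 3 genes by adjusted p with a pseudocount of 0.1, 1 where mean TPM had to reach 1 and 40 with no filter (2011 unadjusted). The cause was not tested. Leaving out 1 library gave 1 member and 410 to 2800 genes at 3 dpi (0 to 42 adjusted), 1 to 3 members unadjusted, 0 to 2 adjusted and 5 to 314 genes adjusted at 7 dpi, 1 to 6 members and 3038 to 9898 genes between days in controls, 0 to 4 members and 5566 to 8901 genes in Osr1cKO, and for the interaction 2 to 3 members and 760 to 2587 genes unadjusted and 0 to 105 genes adjusted. Signs turned only there: at 3 dpi Hyal1 ranged from -0.0063 to 0.20, Hyal2 from -0.056 to 0.36 and Cd44 from -0.023 to 0.39, and at 7 dpi Has2 from -0.13 to 0.19 and Hyal2 from -0.0073 to 0.23 on the log2 scale. Where 1 library is left in a group, it is assumed to vary like the others.

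Same-numbered libraries did not deviate together over all genes (correlations from -0.144 to 0.0662). These values gave no sign of pairing by number, and whether such libraries were handled together is not known. With the replicate block, Has1 between days in controls (limma adjusted p = 0.114) and Cemip at 3 dpi (unadjusted p = 0.057) lost their calls. A crossed pairing, chosen after seeing the data, gave 2 members and 1194 genes at 3 dpi, and 4 members and 8267 genes between days in controls.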
